A study of Mus musculus with 8 samples.

Results

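Replication-dependent histone genes were examined in the livers of ob/ob mice given low doses of leptin. The members were taken by name: every probe of the array whose symbol, in the symbol column or in brackets in the transcript definition, was Hist followed by 1 to 4 and h. This gave 60 probes for 55 gene symbols among 25697 probes (0.233%). Of these, 39 probes for 38 symbols (65.0%) were above background, meaning a detection p-value under 0.05 on 2 or more of the 8 arrays. By protein class these were 2 of 6 H1 probes, 12 of 15 H2A probes, 8 of 16 H2B probes, 7 of 12 H3 probes and 10 of 11 H4 probes. Of the 21 other probes, 3 were above background on 1 array and 18 on 0 arrays. The testis-type genes Hist1h1t, Hist1h2aa and Hist1h2ba were among the 18.

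Histones H2A, H2B, H3 and H4 form the octamer around which DNA is wrapped into nucleosomes, and H1 binds the linker DNA between them. The genes studied here lie in clusters, are transcribed mostly in S phase, when newly made DNA has to be packaged, and are shut down outside it. Their mRNAs are known to end in a conserved stem-loop in place of a poly(A) tail, although polyadenylated forms of several of them are made in differentiated tissue. The liver is a largely quiescent tissue, in which few cells are in S phase at a given time.

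The arrays measured liver RNA of adult male mice that had received leptin at 0 ng/hr (controls, 3 arrays, replicates 1 to 3), 12.5 ng/hr (2 arrays, replicates 4 and 5) or 25 ng/hr (3 arrays, replicates 6 to 8) for 12 days. The series title gives all mice as ob/ob, a genotype without functional leptin that the control mice share, and the labels give no age beyond adult. The agent field of the labels reads untreated at 25 ng/hr and leptin at 0 ng/hr, against the title, source and dose fields, so every direction below rests on the dose. The labels do not say that each array holds a separate animal, so p-values may measure technical spread only. All arrays lay on 1 BeadChip in the order of the doses, so chip position and dose cannot be told apart.

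Each array detected 12094 to 12783 probes (47.1% to 49.7%), 30 to 37 of them for histones, at a mean unscaled intensity of 456 to 532. Of the hepatocyte markers, 5 of 6 were above background, all but Alb. Of the T and NK cell markers only Cd3d was above background, and Cd3e, Cd4, Cd8a and Nkg7 were not. Labelled cRNA was made with the Ambion MessageAmp kit, which primes on poly(A) tails, so the signals come from whatever tailed or internally primed histone RNA was present. Histone paralogs are close to identical in their coding sequence and the deposited files hold no probe sequences, so a probe may also report the transcripts of its paralogs. In whole liver, a change in the number of cells of a type and a change in RNA per cell cannot be told apart.

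At 25 against 0 ng/hr, most histone probes had estimates above 0, and 2 H4 probes, Hist1h4h and Hist1h4m, rose (limma, Benjamini-Hochberg adjusted over all 13760 probes above background, threshold 0.05). Of all probes tested, 0.858% were called in this comparison and 0.603% were called higher. Estimates were above 0 for 31 of 39 histone probes, with a median log2 difference of 0.24, against a share of 50.4% and a median of 0.00 over all probes. The arrays of both groups did not overlap for 16 histone probes, all higher at 25 ng/hr, where 11.4% of all probes were separated in that direction.

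At 12.5 against 0 ng/hr, 0 of 39 histone probes and 0 of all 13760 probes passed (0%). Estimates were below 0 for 28 of 39 histone probes, with a median log2 difference of -0.12, where 50.5% of all probes were below 0. At an unadjusted p under 0.05, 7 histone probes were lower and 0 higher, where 11.2% of all probes had such a p and 4.99% were lower with it. Fitting the same groups on the authors' scaled intensities called 18 probes of the array and 0 histone probes.

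At 25 against 12.5 ng/hr, 4 histone probes rose, and each of them was an H4 probe. Of all probes tested, 0.407% were called in this comparison and 0.116% were called higher. Estimates were above 0 for 35 of 39 histone probes, against 51.9% of all probes, with a median log2 difference of 0.34 against 0.01. Groups did not overlap for 21 histone probes that were higher, where 14.9% of all probes were separated that way, and for 1 that was lower (Hist1h1c), where 15.8% were. The comparisons share arrays, so their values are given side by side and were not set against each other.

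**Figure D1:**
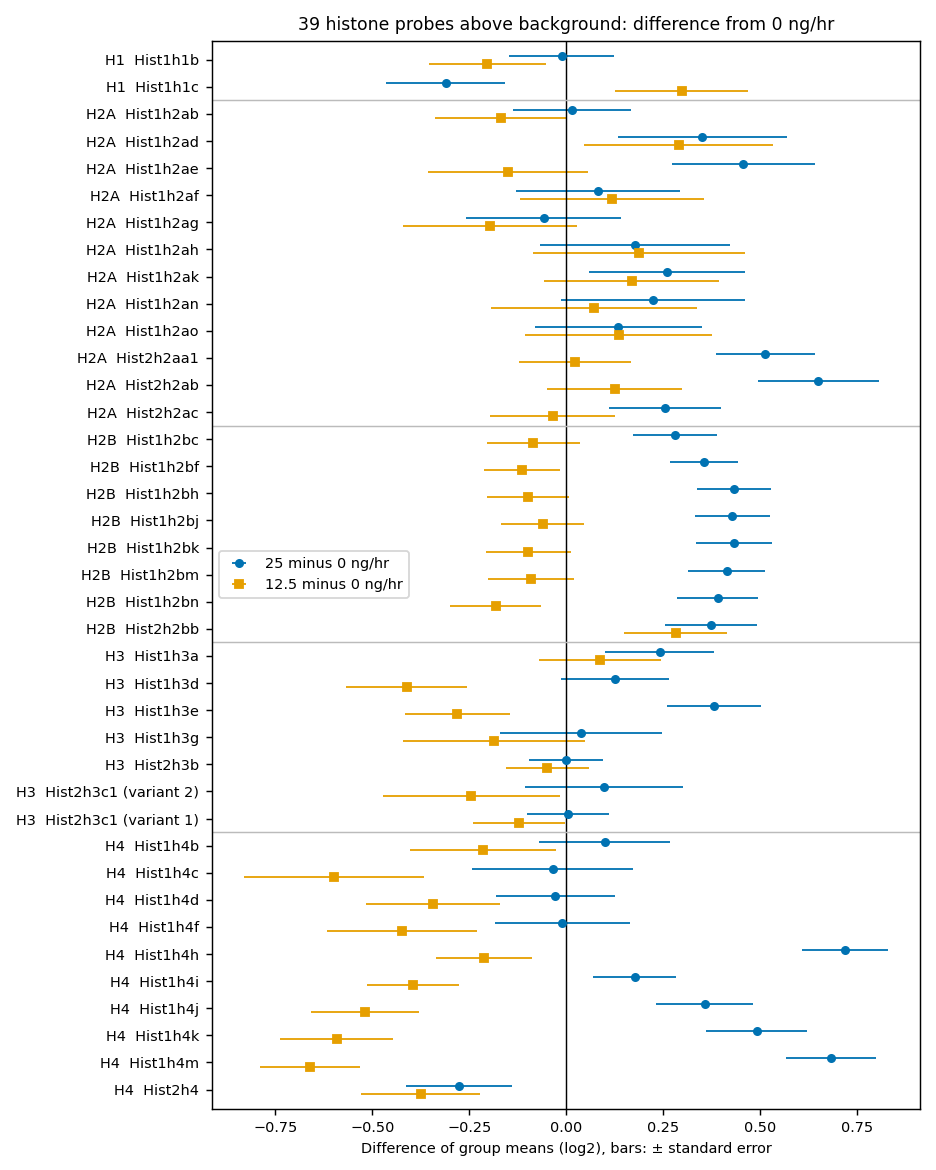
Difference of group means on the log2 scale for each of the 39 histone probes above background, grouped by class (rows). Circles give 25 minus 0 ng/hr, squares 12.5 minus 0 ng/hr, and bars ± 1 standard error of the limma fit. The 8 H2B circles lie between 0.28 and 0.43, and the 10 H4 squares between -0.66 and -0.21.

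Histone H4 genes carry in their promoters a proximal element known as site II, whose core is bound by the H4 transcription factor HINFP. The RefSeq promoters (build GRCm38.p6) of the 4 H4 genes whose probes passed a test, and of Hist1h4i, are shown. Every H4 promoter found held the letters of this core, and nearly all promoters of the other classes lacked them. Each stretch runs 5′ to 3′ from 120 bases before to 30 bases after the annotated start, and capitals mark the core GGTCCG. Hist1h4h lies at chr13:23530924-23531073 (plus strand), Hist1h4j at chr13:21734914-21735063 (plus strand), Hist1h4k at chr13:21750524-21750673 (minus strand), Hist1h4m at chr13:21811626-21811775 (plus strand) and Hist1h4i at chr13:22041333-22041482 (minus strand).
Hist1h4h: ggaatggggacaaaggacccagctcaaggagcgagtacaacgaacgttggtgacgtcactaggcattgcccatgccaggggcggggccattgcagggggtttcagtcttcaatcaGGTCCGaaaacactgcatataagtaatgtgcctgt
Hist1h4j: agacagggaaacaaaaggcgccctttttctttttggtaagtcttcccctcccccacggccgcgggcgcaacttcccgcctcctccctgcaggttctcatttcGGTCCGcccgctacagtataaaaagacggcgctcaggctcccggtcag
Hist1h4k: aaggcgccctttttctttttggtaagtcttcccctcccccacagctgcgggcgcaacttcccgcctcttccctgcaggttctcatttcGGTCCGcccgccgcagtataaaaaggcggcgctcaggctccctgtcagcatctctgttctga
Hist1h4m: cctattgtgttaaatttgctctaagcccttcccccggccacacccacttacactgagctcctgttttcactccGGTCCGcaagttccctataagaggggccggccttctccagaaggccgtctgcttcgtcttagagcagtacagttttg
Hist1h4i: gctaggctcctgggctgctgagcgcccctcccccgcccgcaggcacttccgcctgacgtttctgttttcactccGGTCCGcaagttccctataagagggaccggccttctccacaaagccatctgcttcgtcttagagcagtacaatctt

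Promoters were found for 50 of the 55 histone genes, 35 of them with a probe above background. GGTCCG, searched on both strands of windows of 300 bases, was present in 10 of 10 H4 promoters, in 1 of 12 H2B promoters and in 0 of 15 H2A, 0 of 7 H3 and 0 of 6 H1 promoters, against 9.44% of 27025 genes. It began at position -47 in Hist1h4m and -46 in Hist1h4i, counted back from the annotated start, and at -32 in Hist1h4k, -18 in Hist1h4j and -5 in Hist1h4h. A TATAA sequence followed it in each stretch printed above. TATAA began at -32 in Hist1h4m, -31 in Hist1h4i, -16 in Hist1h4k, -2 in Hist1h4j and 13 in Hist1h4h. All these positions depend on where the start was annotated. Whole H4 windows were otherwise diverse: the median identity of 36 gene pairs was 59.7%, with 91.7% for Hist1h4j and Hist1h4k, 72.3% for Hist1h4i and Hist1h4m, and at most 63.0% for the other pairs. Hist1h4j and Hist1h4k are adjacent genes, placed tail to tail in the Hist1 cluster on chromosome 13. All 10 H4 promoters found held the core, among them those of genes whose probes passed a test and of genes whose probes did not. No promoter was found for Hist2h4. In Hist1h4b the core began at position 7, after the annotated start. The part of this element in the H4 differences was not tested.

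Among the H4 probes, Hist1h4m (current symbol H4c17) showed the largest differences of the histone set in the comparison of 25 with 12.5 ng/hr. Its normalized log2 signal was 6.28, 6.47 and 6.25 at 0 ng/hr, 5.80 and 5.55 at 12.5 ng/hr, and 6.93, 6.98 and 7.14 at 25 ng/hr. The 3 groups did not overlap, with the 12.5 ng/hr arrays lowest and the 25 ng/hr arrays highest. It rose by 0.68 (log2, SE 0.12, adjusted p = 0.0383) at 25 against 0 ng/hr and by 1.34 (SE 0.13, adjusted p = 0.00749), or 2.54-fold, at 25 against 12.5 ng/hr. At 12.5 against 0 ng/hr the difference was -0.66 (SE 0.13), with an adjusted p of 0.158.

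Hist1h4h (current symbol H4c8) had log2 signals of 7.96, 8.07 and 7.85 at 0 ng/hr, 7.75 and 7.75 at 12.5 ng/hr, and 8.77, 8.76 and 8.51 at 25 ng/hr. The 25 ng/hr arrays stood well above both other groups, and the 12.5 ng/hr arrays lay just below the controls. It rose by 0.72 (SE 0.11, adjusted p = 0.0302), or 1.65-fold, at 25 against 0 ng/hr. It also rose by 0.93 (SE 0.12, adjusted p = 0.0219) at 25 against 12.5 ng/hr, while its difference at 12.5 against 0 ng/hr was -0.21 (SE 0.12, adjusted p = 0.569).

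The calls at 25 against 0 ng/hr were close to the threshold. Hist1h4h and Hist1h4m both missed it, with adjusted p-values from 0.0516 to 0.117, when any 1 of replicates 1 to 7 was left out, and only Hist1h4h passed without replicate 8. Over the whole array the 118 calls became 39, 22, 1, 14, 14, 0, 5 and 194 without replicates 1 to 8 in turn. With median scaling in place of quantile normalization neither H4 probe passed (adjusted p = 0.0608 and 0.0601), and 53.3% of the calls over the whole array were higher at 25 ng/hr, against 70.3% in the fit reported here.

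Hist1h4k had log2 signals of 6.64, 6.75 and 6.37 at 0 ng/hr, 6.004 and 5.98 at 12.5 ng/hr, and 6.89, 7.18 and 7.17 at 25 ng/hr. Its neighbour Hist1h4j had 7.14, 6.96 and 6.73 at 0 ng/hr, 6.54 and 6.30 at 12.5 ng/hr, and 7.32, 7.26 and 7.31 at 25 ng/hr. For both probes the 3 groups did not overlap and came in the same order as for Hist1h4m. At 25 against 12.5 ng/hr Hist1h4k rose by 1.08 (SE 0.15, adjusted p = 0.0219). Hist1h4j rose by 0.88 (SE 0.14, adjusted p = 0.0425) in the same comparison. Neither passed at 25 against 0 ng/hr, where Hist1h4k differed by 0.49 (SE 0.13, adjusted p = 0.116) and Hist1h4j by 0.36 (SE 0.12, adjusted p = 0.197).

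These 4 calls at 25 against 12.5 ng/hr depended on the pair of 12.5 ng/hr arrays. Without replicate 4 or without replicate 5, 0 histone probes passed, 2 passed without replicate 6, 1 without replicate 7 and 2 without replicate 8, while 4, 3 and 4 passed without replicates 1, 2 and 3. The 56 calls over the whole array became 0, 1, 13, 22 and 25 without replicates 4 to 8 in turn. In the fits without replicate 4 or 5 the lone 12.5 ng/hr array is assumed to vary like the other groups. Under median scaling 2 histone probes passed, Hist1h4m and Hist1h4k, and 13.1% of all calls were higher at 25 ng/hr, against 28.6% in the fit reported here.

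The remaining H4 probes did not pass in any comparison. Hist1h4i had log2 signals of 7.67, 7.49 and 7.59 at 0 ng/hr, 7.22 and 7.15 at 12.5 ng/hr, and 7.80, 7.87 and 7.61 at 25 ng/hr. Only its 12.5 ng/hr arrays stood apart, below both other groups, with a difference of -0.40 (SE 0.12, adjusted p = 0.285) at 12.5 against 0 ng/hr and of 0.57 (SE 0.12, adjusted p = 0.104) at 25 against 12.5 ng/hr. Hist1h4c had log2 signals of 5.54, 5.13 and 5.29 at 0 ng/hr, 4.78 and 4.66 at 12.5 ng/hr, and 5.77, 5.20 and 4.88 at 25 ng/hr. It was not above background on either 12.5 ng/hr array, which gives bounds of at least 1.37-fold lower at 12.5 against 0 ng/hr (adjusted p = 0.393) and at least 1.34-fold higher at 25 against 12.5 ng/hr (adjusted p = 0.354). Such a bound sets the mean of the brighter group against the lowest signal detected on each dim array, or the dim probe's own value if it exceeds that.

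Hist2h4, the H4 gene of the Hist2 cluster on chromosome 3, was above background on 2 control arrays only. Its log2 signals were 4.77, 4.94 and 5.15 at 0 ng/hr, 4.67 and 4.48 at 12.5 ng/hr, and 4.85, 4.69 and 4.49 at 25 ng/hr. It was at least 1.06-fold lower at 12.5 than at 0 ng/hr (adjusted p = 0.408). The groups at 25 and 0 ng/hr overlapped, with a difference of -0.28 (adjusted p = 0.344), so no bound is given there. Its estimate at 25 against 0 ng/hr had the opposite sign to those of Hist1h4m and Hist1h4h. Hist1h4b, Hist1h4d and Hist1h4f had differences between -0.03 and 0.10 in that comparison and between -0.42 and -0.21 at 12.5 against 0 ng/hr. Hist1h4b was above background on 0 of the 12.5 ng/hr arrays and allowed no bound.

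Taken by class, the H4 probes were the ones with the lowest median at 12.5 against 0 ng/hr. All 10 estimates were below 0, with a median of -0.41, and 7 of 10 probes did not overlap, where 13.9% of all probes were separated downward. None of the 10 passed the test (adjusted p from 0.158 to 0.732), and 6 were lower at an unadjusted p under 0.05, as were 4.99% of all probes. At 25 against 12.5 ng/hr all 10 estimates were above 0, with a median of 0.57. At 25 against 0 ng/hr the class was mixed, with 6 of 10 above 0 and a median of 0.14. These counts of signs for the 10 probes were the same under median scaling and on the authors' scaled intensities. The 7 H4 probes above background on all 8 arrays, which leave out Hist1h4b, Hist1h4c and Hist2h4, had medians of 0.36 at 25 against 0 ng/hr, -0.42 at 12.5 against 0 ng/hr and 0.88 at 25 against 12.5 ng/hr.

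**Figure D2:**
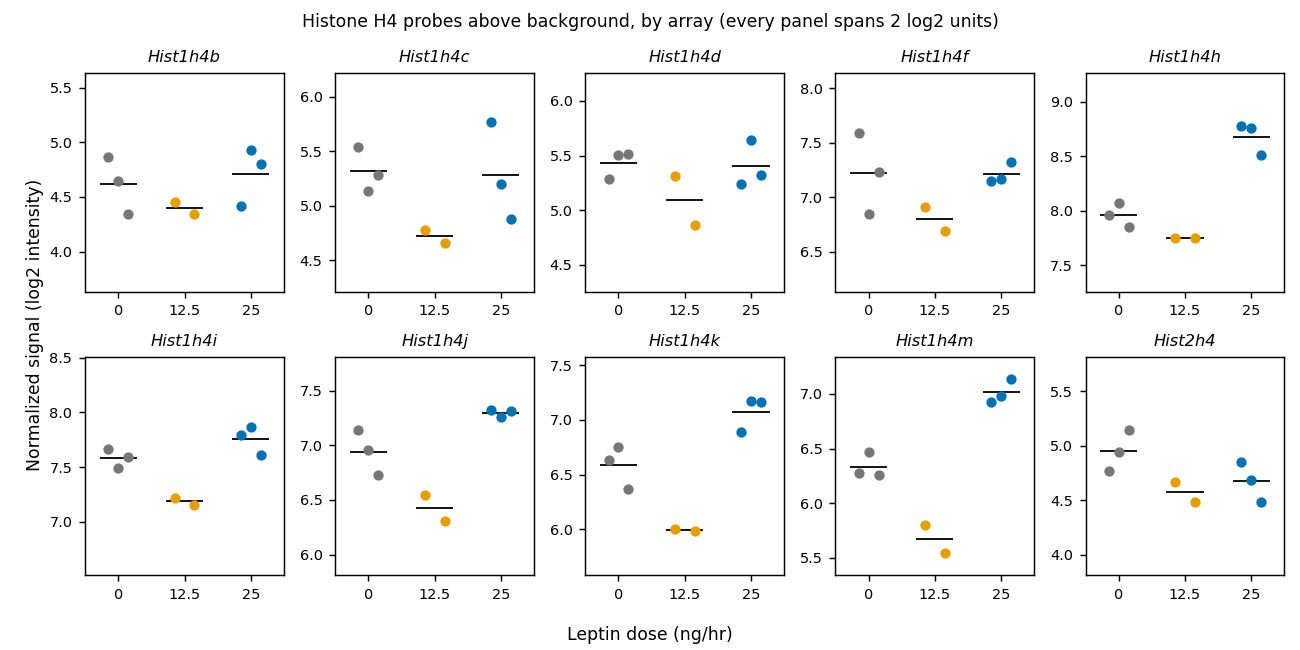
Normalized log2 signal (vertical axis, each panel 2 log2 units high) of the 10 H4 probes above background by leptin dose in ng/hr (horizontal axis). Points are arrays and lines are group means. Hist1h4h, Hist1h4j, Hist1h4k and Hist1h4m are highest at 25 ng/hr with no overlap, while the 12.5 ng/hr arrays of Hist1h4c and Hist1h4i lie below all their other arrays.

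The H2B probes had estimates above 0 and of nearly the same size at 25 against 0 ng/hr, and smaller ones at 12.5 against 0 ng/hr. This was not particular to H2B. The H2A probes Hist2h2aa1 and Hist2h2ab had 0.51 and 0.65 at 25 against 0 ng/hr, and 0.02 and 0.13 at 12.5 against 0 ng/hr. H2B and H2A genes often lie head to head and share a promoter, and many H2B promoters hold the octamer element ATTTGCAT, bound by POU2F1, and a CCAAT box, bound by the NF-Y complex. Searched on both strands, ATTTGCAT was present in 7 of 12 H2B and 7 of 15 H2A promoters and in 0 H1, H3 or H4 promoters, against 1.97% of all genes. CCAAT was present in all 12 H2B, 15 H2A, 7 H3 and 6 H1 promoters matched, but in 2 of 10 H4 promoters, against 41.1% of all genes. TATAA was present in 84.0% of the histone promoters and in 28% of all promoters, and none of these motifs contains another. The stretches below, from 120 bases before to 30 bases after the annotated start, belong to Hist1h2bh at chr13:23543415-23543564 (minus strand) and Hist1h2bk at chr13:22035701-22035850 (plus strand), of which the stretch of Hist1h2bk holds the octamer element and that of Hist1h2bh does not. Capitals mark ATTTGCAT and ATTGG, the CCAAT box read on the other strand. Hist1h2bh is the H2B gene that holds the H4 core, left in lower case, which begins at position -94.
Hist1h2bh: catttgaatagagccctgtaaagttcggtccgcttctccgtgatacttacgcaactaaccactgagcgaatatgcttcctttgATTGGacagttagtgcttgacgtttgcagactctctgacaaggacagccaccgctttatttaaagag
Hist1h2bk: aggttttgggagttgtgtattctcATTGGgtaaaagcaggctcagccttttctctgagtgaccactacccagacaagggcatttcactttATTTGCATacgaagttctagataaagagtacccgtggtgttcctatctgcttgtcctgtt

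Hist1h2bh had log2 signals of 11.17, 11.16 and 11.23 at 0 ng/hr, 11.16 and 11.02 at 12.5 ng/hr, and 11.64, 11.68 and 11.54 at 25 ng/hr. Hist1h2bk had 9.59, 9.56 and 9.53 at 0 ng/hr, 9.58 and 9.35 at 12.5 ng/hr, and 9.97, 10.003 and 10.01 at 25 ng/hr. For both, the 25 ng/hr arrays were above all of the other 5 arrays. The differences at 25 against 0 ng/hr were 0.43 (SE 0.10, adjusted p = 0.0805) for Hist1h2bh and 0.43 (SE 0.10, adjusted p = 0.0837) for Hist1h2bk, so neither passed.

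Hist1h2bj had log2 signals of 11.42, 11.47 and 11.42 at 0 ng/hr, 11.45 and 11.31 at 12.5 ng/hr, and 11.85, 11.95 and 11.79 at 25 ng/hr. Hist1h2bm had 10.09, 10.18 and 10.19 at 0 ng/hr, 10.17 and 9.95 at 12.5 ng/hr, and 10.56, 10.61 and 10.52 at 25 ng/hr. Hist1h2bn had 10.35, 10.36 and 10.36 at 0 ng/hr, 10.31 and 10.05 at 12.5 ng/hr, and 10.80, 10.80 and 10.65 at 25 ng/hr. In all 3 the lowest 25 ng/hr array lay above every other array, and replicate 5 was the lowest array of all. Hist1h2bf had 11.99, 11.96 and 11.97 at 0 ng/hr, 11.89 and 11.83 at 12.5 ng/hr, and 12.36, 12.34 and 12.28 at 25 ng/hr. Its controls spread by little, and its difference at 25 against 0 ng/hr was 0.35 (SE 0.09, adjusted p = 0.0984).

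Hist1h2bc, which was also measured by a probe above background on 0 arrays, had log2 signals of 12.37, 12.43 and 12.16 at 0 ng/hr, 12.29 and 12.18 at 12.5 ng/hr, and 12.53, 12.69 and 12.58 at 25 ng/hr. Its groups at 25 and 0 ng/hr were separated by a narrow gap, with a difference of 0.28 (SE 0.11, adjusted p = 0.230). Hist2h2bb, the H2B probe of the Hist2 cluster, had 5.59, 5.31 and 5.19 at 0 ng/hr, 5.66 and 5.63 at 12.5 ng/hr, and 5.82, 5.71 and 5.67 at 25 ng/hr. It differed from the Hist1 probes in that its 12.5 ng/hr arrays also lay above the controls, by 0.28 (SE 0.13, adjusted p = 0.471). Its other probe was above background on 0 arrays.

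Taken by class, all 8 H2B estimates were above 0 at 25 against 0 ng/hr, between 0.28 and 0.43 with a median of 0.40, and the groups did not overlap for any of the 8, where 11.4% of all probes were separated upward. None of the 8 passed (adjusted p from 0.0805 to 0.230), although each had an unadjusted p under 0.05, as had 8.76% of all probes upward. At 25 against 12.5 ng/hr all 8 were above 0 (7 of 8 under median scaling, where Hist2h2bb fell below 0), with a median of 0.50 and adjusted p-values from 0.0900 to 0.820. At 12.5 against 0 ng/hr 7 of 8 were below 0, with a median of -0.09, but 4 of 8 were above 0 without replicate 5. Other processing brought Hist1h2bf, Hist1h2bh, Hist1h2bj, Hist1h2bk, Hist1h2bm and Hist1h2bn past the threshold at 25 against 0 ng/hr. They passed with no background correction, the authors' scaled intensities and a variance prior with a trend (adjusted p-values between 0.0165 and 0.0495). Each of them passed in only these 3 of 18 alternatives. Those settings called 266, 257 and 293 probes over the whole array, against 118 in the fit reported here.

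**Figure D3:**
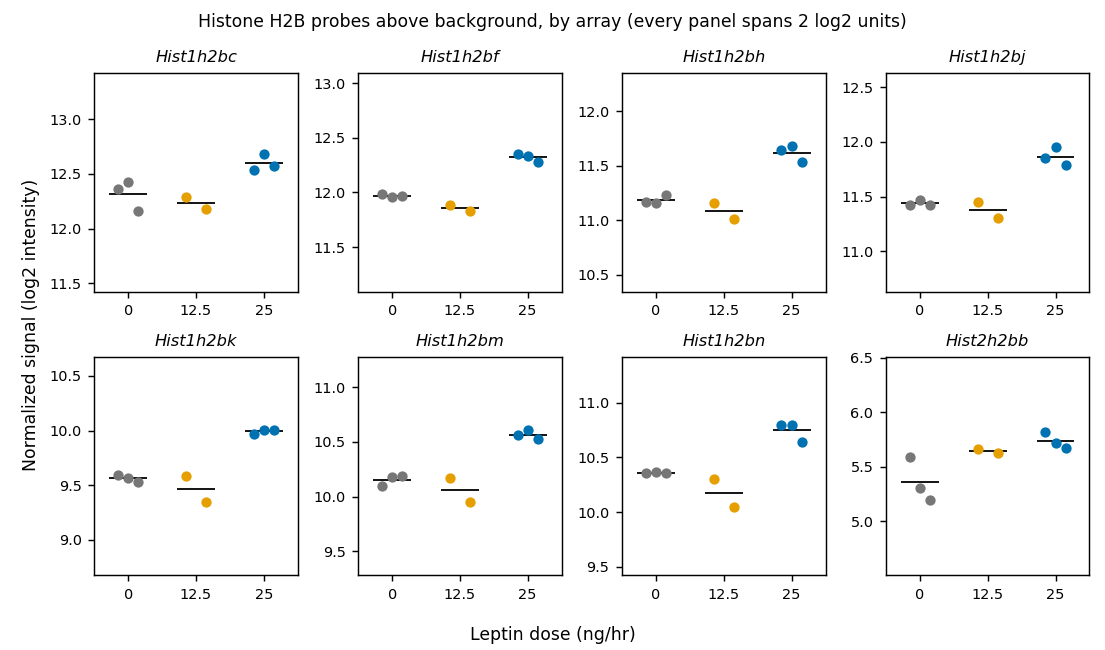
Normalized log2 signal (vertical axis, each panel 2 log2 units high) of the 8 H2B probes above background by leptin dose in ng/hr (horizontal axis). Points are arrays and lines are group means. In every panel the 25 ng/hr arrays lie above the 0 ng/hr arrays, and in the 6 panels from Hist1h2bf to Hist1h2bn the controls lie close together.

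Among the H2A probes, Hist2h2ab and Hist2h2aa1 of the Hist2 cluster had the largest differences at 25 against 0 ng/hr. Hist2h2aa1 had log2 signals of 9.30, 9.13 and 9.19 at 0 ng/hr, 9.45 and 9.01 at 12.5 ng/hr, and 9.65, 9.81 and 9.69 at 25 ng/hr. Hist2h2ab had 5.54, 5.91 and 5.70 at 0 ng/hr, 6.12 and 5.56 at 12.5 ng/hr, and 6.43, 6.34 and 6.33 at 25 ng/hr. For both, the 25 ng/hr arrays were the 3 highest and the 12.5 ng/hr arrays fell on either side of the controls. At 25 against 0 ng/hr the difference was 0.51 (SE 0.13, adjusted p = 0.101) for Hist2h2aa1 and 0.65 (SE 0.16, adjusted p = 0.0923) for Hist2h2ab. Hist2h2ac, placed tail to tail with Hist2h2ab, differed by 0.25 (SE 0.14, adjusted p = 0.413).

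Of the H2A probes of the Hist1 cluster, 0 of 9 passed in any comparison. Hist1h2ad, Hist1h2af, Hist1h2ah, Hist1h2ak, Hist1h2an and Hist1h2ao, which were above background on all 8 arrays, had differences between 0.08 and 0.35 at 25 against 0 ng/hr, with groups that overlapped. Their median per array, relative to the mean of the controls, was 0.13, 0.21 and -0.35 in replicates 1 to 3, 0.42 and -0.10 in replicates 4 and 5, and -0.15, 0.54 and 0.24 in replicates 6 to 8. Replicates 4 and 7 were high and replicate 3 low, and the arrays of every dose overlapped with those of the other doses. Of the dimmer Hist1 probes, Hist1h2ae had the largest difference at 25 against 0 ng/hr, 0.46 (SE 0.18, adjusted p = 0.253), with groups that overlapped. It was above background on 0 of the 12.5 ng/hr arrays and at least 1.24-fold higher at 25 against 12.5 ng/hr (adjusted p = 0.266). Hist1h2ab and Hist1h2ag had differences of 0.01 and -0.06 at 25 against 0 ng/hr.

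Likeness across arrays differed between classes. Over the 8 arrays, pairs of probes that were above background on all of them had a median r of 0.97 (0.45 to 0.99) for 8 H2B probes, 0.82 (0.27 to 0.97) for 9 H2A probes, 0.69 (0.32 to 0.97) for 7 H4 probes and 0.38 (0.21 to 0.80) for 5 H3 probes. Within the Hist1 cluster, the 6 Hist1 H2A probes correlated with each other with a median r of 0.92 (0.85 to 0.97), and the 6 Hist1 H2B probes other than Hist1h2bc with 0.98 (0.97 to 0.99). Between those H2A and H2B probes the median r was 0.29 (0.04 to 0.48). These correlations are descriptions over arrays that share their normalization, and probes of a class may bind the same transcripts. These 6 H2A and 6 H2B probes had different patterns over the same 8 arrays, and their genes are interleaved in the cluster. Hist1h2bc, also above background on all 8 arrays, was left out of this comparison, so it does not cover every Hist1 H2B probe.

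**Figure D4:**
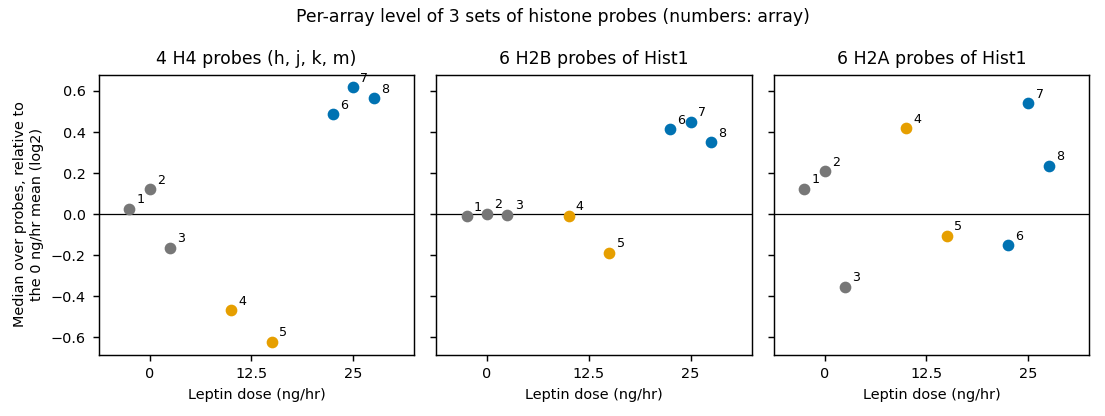
Median log2 level per array relative to the mean of the 0 ng/hr arrays (vertical axis), by leptin dose in ng/hr (horizontal axis), for Hist1h4h, Hist1h4j, Hist1h4k and Hist1h4m (left), for 6 H2B probes (middle) and for 6 H2A probes of the Hist1 cluster (right). Numbers give the array. The 4 H4 probes are those called at 25 against 12.5 ng/hr, so the difference between these doses was fixed by that choice. They lie at -0.47 and -0.62 at 12.5 ng/hr and between 0.49 and 0.62 at 25 ng/hr. Over all 10 H4 probes the medians are -0.34 and -0.55 at 12.5 ng/hr, and 0.26, 0.30 and 0.14 at 25 ng/hr. H2B, without Hist1h2bc, lies between 0.35 and 0.45 at 25 ng/hr, and H2A spreads from -0.15 to 0.54.

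Genes placed head to head share the stretch of DNA between their starts. At 25 against 0 ng/hr the pair Hist1h2ah and Hist1h2bk differed by 0.18 and 0.43, and the pair Hist1h2ak and Hist1h2bn by 0.26 and 0.39. The pair Hist1h2ag and Hist1h2bj differed by -0.06 and 0.43, but Hist1h2ag was above background on 2 arrays only, so its value lies near background. The pair Hist1h2ad and Hist1h2bf differed by 0.35 and 0.35. None of these 8 probes passed, and the difference between the genes of a pair was not tested. Among other neighbours, Hist1h4h with 0.72 lies beside Hist1h2af with 0.08, and Hist1h4m with 0.68 beside Hist1h2ao with 0.13.

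Of the H3 probes, 0 of 7 passed in any comparison, and their median difference was 0.10 at 25 against 0 ng/hr, -0.19 at 12.5 against 0 ng/hr and 0.23 at 25 against 12.5 ng/hr. Hist1h3e had log2 signals of 6.52, 6.36 and 6.41 at 0 ng/hr, 6.16 and 6.14 at 12.5 ng/hr, and 6.57, 6.90 and 6.96 at 25 ng/hr. The 3 groups did not overlap and stood in the same order as those of Hist1h4m, with differences of 0.38 (SE 0.12, adjusted p = 0.165) at 25 against 0 ng/hr and 0.66 (SE 0.14, adjusted p = 0.0964) at 25 against 12.5 ng/hr. Hist1h3d had 6.59, 6.13 and 6.63 at 0 ng/hr, 6.04 and 6.04 at 12.5 ng/hr, and 6.49, 6.67 and 6.57 at 25 ng/hr. Only its 12.5 ng/hr arrays stood apart, by -0.41 (SE 0.16, adjusted p = 0.385) from the controls.

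The other H3 probes, Hist1h3a, Hist1h3g, Hist2h3b and both probes of Hist2h3c1, had differences of at most 0.24 at 25 against 0 ng/hr. The probes for transcript variants 1 and 2 of Hist2h3c1 gave 0.00 (SE 0.11) and 0.10 (SE 0.20) there. At 25 against 12.5 ng/hr all 7 H3 estimates were above 0, with a median of 0.23. Hist1h3a was above background on 0 of the 12.5 ng/hr arrays and on 1 of the 25 ng/hr arrays. Its groups overlapped there, with a difference of 0.15 (adjusted p = 0.721), so no bound is given. Hist1h3f was measured by 3 probes, all above background on 0 arrays.

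The linker histone probes had estimates below 0 at 25 against 0 ng/hr, and neither passed in any comparison. Hist1h1c, an H1 subtype found in most somatic cells, had log2 signals of 12.21, 11.71 and 12.07 at 0 ng/hr, 12.31 and 12.28 at 12.5 ng/hr, and 11.47, 11.89 and 11.70 at 25 ng/hr. Its 12.5 ng/hr arrays lay above all others, while the arrays at 25 and 0 ng/hr overlapped. The differences were -0.31 (SE 0.15, adjusted p = 0.345) at 25 against 0 ng/hr, 0.30 (SE 0.17, adjusted p = 0.564) at 12.5 against 0 ng/hr and -0.61 (SE 0.17, adjusted p = 0.196) at 25 against 12.5 ng/hr. Hist1h1b differed by -0.01 (SE 0.13) at 25 against 0 ng/hr, and the other 4 H1 probes were not above background on 2 or more arrays.

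By cluster, 31 of 47 probes of Hist1 on chromosome 13 and 8 of 9 of Hist2 on chromosome 3 were above background, against 0 of 3 of Hist3 on chromosome 11 and 0 of 1 of Hist4 on chromosome 6. The median difference at 25 against 0 ng/hr was 0.24 for Hist1 and 0.18 for Hist2. At 12.5 against 0 ng/hr the medians were -0.17 for Hist1 and -0.04 for Hist2.

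Genes that act with histone supply in S phase were read out from the same fit. Of the 32 S phase and replication genes listed, 30 were on the array and 25 above background, with 38 probes. At 25 against 0 ng/hr 1 of these probes rose, where 0.603% of all probes were called higher. It measures Tk1, the thymidine kinase of the nucleotide salvage pathway, and rose by 0.68 (SE 0.11, adjusted p = 0.0302). The other Tk1 probes had 0.02 and 0.24 and did not pass, and 0 probes of the list passed under median scaling, with only the groups compared, or without any 1 of replicates 1 to 7. The median of the 38 probes was 0.00. Cdk2, the kinase that drives S phase, had 0.46 (adjusted p = 0.0837) with its strongest probe and 0.31, 0.14 and 0.08 with the others. Ung, the uracil DNA glycosylase, had 0.35 (adjusted p = 0.219) with 1 of its 3 probes and 0.01 and 0.02 with the others. Mcm6, a subunit of the replicative helicase, had -0.68 (adjusted p = 0.257) with 1 of its 3 probes and -0.10 and -0.13 with the others. Of the 22 mitosis and proliferation genes listed, 19 were on the array and 8 above background, with 13 probes, 0 of them called and a median of -0.04. The probe of smallest p among them was 1 of 3 of Birc5, an inhibitor of apoptosis made in mitosis. This Birc5 probe was above background on 0 of the 25 ng/hr arrays and on 1 control array. Its groups overlapped, with a difference of -0.36 (adjusted p = 0.296).

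The list of replication-independent histone variants gave 8 probes above background, 0 of them called, with a median of 0.02 at 25 against 0 ng/hr. H1f0, the linker histone of differentiated cells, had the smallest p among them, with 0.52 (SE 0.11, adjusted p = 0.0704). Genes of histone mRNA transcription and end processing gave 17 probes for 11 genes, 0 of them called and a median of 0.00. Nfya, a subunit of NF-Y, was above background on 0 of the 25 ng/hr arrays and at least 1.09-fold lower (adjusted p = 0.0947). Chaperones and deposition factors gave 19 probes for 14 genes, 0 called and a median of 0.09, with 0.32 (adjusted p = 0.172) for Chaf1b, a subunit of the chromatin assembly factor. At 12.5 against 0 and at 25 against 12.5 ng/hr, 0 probes of these 5 lists were called.

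Some markers of other cell types also differed between the doses. Kupffer cell and macrophage markers were above background for 6 of 7 genes, all but Cd5l, and the summed scaled intensity of their probes above background ranged from 2440 to 2601 at 0 ng/hr, 3391 to 3758 at 12.5 ng/hr and 3523 to 3912 at 25 ng/hr. The sums of the other lists were taken in the same way. Of the 10 Kupffer cell and macrophage probes, 4 rose at 25 against 0 ng/hr, where 0.603% of all probes were called higher. These were 2 probes of Emr1 (Adgre1, which encodes F4/80) by 0.95 and 0.90, 1 of Clec4f by 0.83 and Vsig4 by 0.58 (adjusted p from 0.0302 to 0.0378). The Kupffer cell and macrophage sums at 12.5 ng/hr also lay above those of the controls. Stellate cell and fibroblast markers, all 6 above background, summed to 7914 to 14040 at 0 ng/hr. Their sums were 10890 to 11640 at 12.5 ng/hr and 6246 to 7891 at 25 ng/hr. The highest control sum was that of replicate 1, where 1 Acta2 probe had an unscaled intensity of 4557, against 585 and 252 in replicates 2 and 3. At 25 against 12.5 ng/hr Col3a1 and Lum fell by 1.45 and 1.38 (adjusted p = 0.0144 and 0.0425). The Col1a1 probe, which no 25 ng/hr array detected, was lower by at least 3.52-fold (adjusted p = 0.0219).

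Sums of the endothelial markers, all 5 above background, were 3924 to 4825 at 0 ng/hr, 4562 to 4762 at 12.5 ng/hr and 5224 to 6425 at 25 ng/hr. Most of each of these sums came from Clec4g, which had 0.55 at 25 against 0 ng/hr (adjusted p = 0.0873), while the median of the 6 probes was 0.04. The 4 erythroid markers above background summed to 37340 to 40040 at 0 ng/hr and 32890 to 37820 at 12.5 ng/hr. Their sums at 25 ng/hr were 28630 to 36640. Most of each sum came from Hba-a1, whose normalized groups at 25 and 0 ng/hr overlapped. At 25 against 0 ng/hr Slc4a1 had -0.70, Hbb-b1 -0.41, Hba-a1 -0.19 and Alas2 0.44 (adjusted p from 0.135 to 0.440). Hepatocyte sums were 153400 to 164700 at 0 ng/hr, 157100 to 164400 at 12.5 ng/hr and 165000 to 166500 at 25 ng/hr. B cell markers (2 of 4 above background, without Cd79a and Ms4a1) summed to 149 to 157 at 0 ng/hr, 152 to 165 at 12.5 ng/hr and 161 to 170 at 25 ng/hr. Neutrophil markers (3 of 6) had sums that overlapped between 25 and 0 ng/hr, as did Cd3d for T and NK cells. Cholangiocyte markers (2 of 3, without Krt19) summed to 151 to 161 at 0 ng/hr, 128 to 163 at 12.5 ng/hr and 141 to 144 at 25 ng/hr. No endothelial, erythroid, hepatocyte, B cell, neutrophil, T and NK cell or cholangiocyte probe was called in any comparison. The part of any of these cell types in the histone differences was not tested.

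The authors' deposited table gives ratios of group means for the same probes. For Hist1h4m it lists 1.36 for 25 over 0 ng/hr, 0.762 for 12.5 over 0 ng/hr and 1.78 for 25 over 12.5 ng/hr. For Hist1h2bh the authors' deposited table lists 1.37, 0.947 and 1.45 for those comparisons. These ratios come from scaled intensities without background subtraction, and the ratios here after it were 1.60 and 2.54 for Hist1h4m at 25 over 0 and 25 over 12.5 ng/hr.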

How the data were processed

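Liver RNA on 8 arrays of 1 Illumina BeadChip was grouped by the dose in the labels: 0 ng/hr (3 arrays), 12.5 ng/hr (2) and 25 ng/hr (3). The RNA came from a Trizol extraction and was labelled as biotinylated cRNA, per the labels' protocols. How the arrays were scanned and which genome build was used is not given in the sources used here. For each array the authors deposited unscaled average intensities and a detection p-value for every probe. Another deposited table holds the authors' scaled intensities (1 factor per array), the group means and the ratio of these for each pair of groups.

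Unscaled intensities were background-corrected from the detection p-values, then quantile-normalized as log2 values (neqc, offset 16, limma 3.58.1 in R 4.3.3). A probe was kept if 2 or more arrays gave it a detection p-value below 0.05, as for 13760 of 25697 (53.5%). A limma fit of 3 group means used all arrays together, tested with eBayes (5 residual and 4.21 prior degrees of freedom) and adjusted over all kept probes with Benjamini-Hochberg. Errors are standard errors (SE) of that fit. On simulated data for 25 minus 0 ng/hr with 13760 probes, the fit recovered 20% of 100 changes of 0.5 and 87% of 100 changes of 1 (log2), with 3 false calls. Precision is limited by the number of arrays.

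The members and all lists were chosen with earlier results of these data known. Each histone probe above background is named. Values on all arrays are given for up to 20 of them by smallest p, among those past the threshold, with groups that do not overlap against 0 ng/hr, or with 1 of the 3 smallest p-values per comparison. Of other lists, up to 4 members of smallest p are named. Promoters are from RefSeq (GRCm38.p6), which also gave gene neighbours, with Python 3.11.15 and Biopython 1.88; figures used matplotlib 3.10.9. Alternatives were other background correction, scaling, source of intensities, detection filters, features, priors, weights and arrays. Dim probes on 0 or 1 arrays were not analysed further.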

Additional observations from a re-analysis of the deposited data

How the results depend on the processing

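Each result was recomputed under 18 alternatives, 8 of which left out 1 array. The 42 histone differences with an unadjusted p under 0.05 kept their sign under all alternatives in which the probe was tested. Signs turned for 38 of 395, 18 of 560 and 25 of 342 recomputed values of the other histone probes at 25 minus 0, 12.5 minus 0 and 25 minus 12.5 ng/hr. At 25 minus 0 ng/hr the count over all probes was 266 without background correction, 257 on the authors' scaled intensities, 56 without a detection filter, 293 with a trended prior, 180 with array weights and 14 with only the groups compared, against 118. The histone count of 2 became 9 with a trended prior, without background correction or from the authors' scaled intensities, 1 without a detection filter, and 0 with median scaling or only the groups compared. Leaving out 1 array gave 0 to 194 probes and 0 to 1 histone probes. At 12.5 minus 0 ng/hr the count of 0 became 7 without background correction, 18 on the authors' scaled intensities and 3 with only the groups compared, and 0 to 2 without 1 array, with 0 histone probes throughout. At 25 minus 12.5 ng/hr the count of 56 became 98 without background correction, 134 on the authors' scaled intensities, 21 without a detection filter and 104 with a trended prior, and 0 to 70 without 1 array. Its 4 histone calls became 10 with a trended prior, without background correction or from the authors' scaled intensities, and 2 with median scaling or without a detection filter, with 0 to 4 without 1 array. The cause of these changes was not tested, except that leaving out arrays or groups lowers the number of samples and the detection filter sets the number of probes tested. Hist1h4m at 25 minus 12.5 ng/hr passed in 16 of 18 alternatives. No paired analysis was possible because the groups share no replicate numbers.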
